A study of Pagiophloeus tsushimanus with 15 samples.

Results

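The ecdysone-related unigenes of the weevil Pagiophloeus tsushimanus were taken from an RNA sequencing table of whole larvae. They are the rows whose protein description holds ecdyson, FTZ-F1, ultraspiracle or nuclear hormone receptor and whose mean over all 15 libraries is at least 0.5 TPM. TPM is a transcript level corrected for transcript length and scaled to the same total in each library, so that levels of different unigenes can be set side by side. Of 34486 unigenes in the table, 11 matched these words and 7 reached the level. The members were thus chosen by their description and selected on their mean TPM, so their means are given as a description, with no test. They were the ecdysone 20-monooxygenase, the nuclear hormone receptors FTZ-F1 and HR96, the ecdysone-induced protein 74EF, protein ecdysoneless and 2 unigenes described as zinc finger protein on ecdysone puffs. The lowest member, 74EF, had a mean of 1.84 TPM, and the next matching row, the ecdysone receptor, lay just under the limit at 0.462 TPM.

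Larvae were fed 1 of 5 diets, with 3 libraries for each diet. The untreated larvae had a diet without either additive. The others had EO, an additive that the labels do not spell out, at 10 mg/g or 30 mg/g, or D-camphor, a monoterpenoid ketone of plants, at 17 mg/g or 41 mg/g. The series' design text sets larvae on diets with terpenoids against larvae on a diet free of them, and on that text alone EO is counted here as a terpenoid diet. The labels give no strain, age, larval stage or moulting state, and leave it unsaid if replicates of a diet were separate animals or pools, so p-values measure only the spread between these libraries. Depth is not recoverable from TPM, so no counting interval is given.

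Ecdysone is the steroid hormone of insect moulting. It is made from dietary sterols by a chain of cytochrome P450 enzymes known in Drosophila as the Halloween genes. The last enzyme, ecdysone 20-monooxygenase, which is Shade in Drosophila, turns ecdysone into its active form, 20-hydroxyecdysone, in tissues outside the gland that makes it. The active hormone binds the ecdysone receptor with its partner ultraspiracle and switches on early genes such as 74EF. FTZ-F1 follows in Drosophila as the hormone pulse declines and is needed to complete the moult.

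The descriptions cover the label of enzymes and moult receptors only in part. Just 1 member was an enzyme of hormone synthesis, and no row was described as ultraspiracle. HR96, though a nuclear receptor, is known in Drosophila for responses to foreign compounds and for lipid balance. Ecdysoneless is known in Drosophila from a mutant with too little ecdysone, and its protein also acts in splicing. The zinc finger protein on ecdysone puffs is an RNA-binding protein of active chromosome sites in Drosophila, and it is not a hormone receptor. Each description names a similar protein of another beetle, the bark beetle Dendroctonus ponderosae or, for HR96, the rice weevil Sitophilus oryzae, and not a function measured in this weevil.

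Whole bodies were sampled, and unigenes described as muscle, gut, fat body and nervous proteins were all detected, while no row matched the haemocyte words. Summed over a list, muscle proteins held 9234 to 13915 TPM and gut proteases and peritrophins 11821 to 19131 TPM per library. Fat body proteins held 1297 to 7213 TPM, and nervous proteins 7.32 to 12.24 TPM. In whole bodies, fewer cells of a type and less RNA per cell cannot be told apart. On the first principal component of all tested unigenes, which held 23.5% of the variance, 3 libraries stood apart at the positive end. They were replicate 1 of EO at 10 mg/g at 57.7, replicate 1 of EO at 30 mg/g at 53.7 and replicate 2 of D-camphor at 41 mg/g at 33.7, with the next library at 14.8. The negative end reached -36.4 in untreated replicate 2, -34.9 in replicate 2 of EO at 10 mg/g and -31.5 in untreated replicate 3. Replicate 2 of D-camphor at 41 mg/g thus lay no farther out than untreated replicate 2, and the 3 were taken from the positive end only. Results that rest on the 3 libraries at the positive end are given with and without them.

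In all 15 libraries the zinc finger protein on ecdysone puffs TRINITY_DN30289_c0_g2 was highest, with a mean of 130.2 TPM. Its namesake TRINITY_DN892_c0_g2 followed at 60.8 TPM, then the 20-monooxygenase at 30.6, HR96 at 6.21 and ecdysoneless at 3.55. This order of 5 held in 15 of 15 libraries. Ecdysoneless was above FTZ-F1, mean 2.56 TPM, in 12 of 15, and FTZ-F1 was above 74EF in 9 of 15, so these lowest 3 could not be ordered beyond their spread between libraries.

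**Figure D1:**
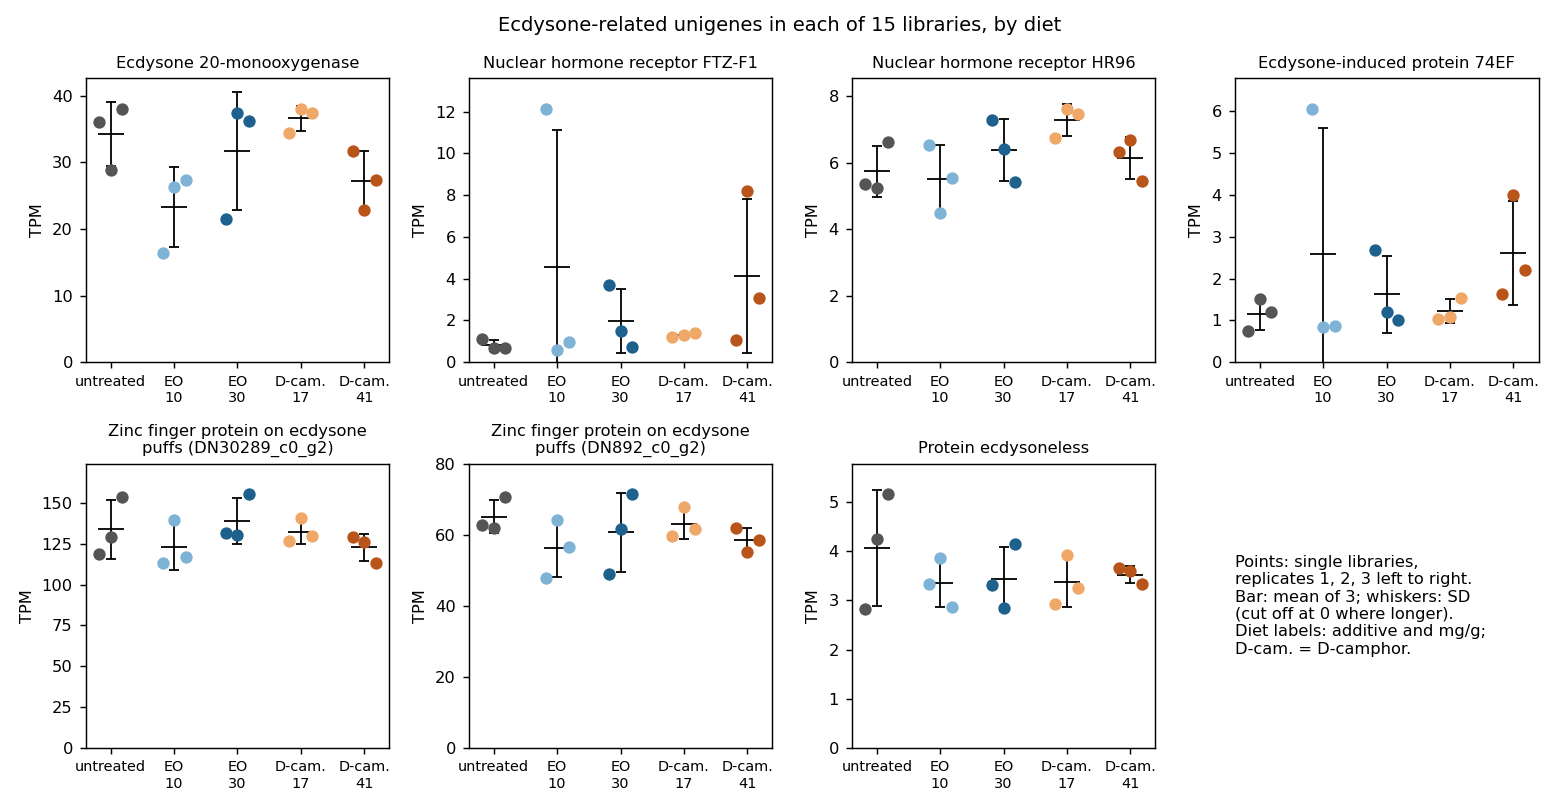
Level in TPM of the 7 ecdysone-related unigenes in each of 15 libraries, by diet (x axis), with the mean as a bar and the SD as whiskers (n = 3). FTZ-F1 and 74EF each had a few high libraries, up to 12.13 and 6.05 TPM, the 20-monooxygenase was lowest at 16.44 TPM in the library where both peaked, and the other unigenes ranged less than 2-fold.

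None of the 7 passed the test in any comparison. By limma on log2(TPM + 1) with Benjamini-Hochberg adjustment over 12510 unigenes, 0 of 7 were past an adjusted p of 0.05 on EO at 10 mg/g, where 0.0719% of all unigenes tested were called. The share of all unigenes called was 0.184% on EO at 30 mg/g, 0.04% on D-camphor at 17 mg/g and 0.016% on D-camphor at 41 mg/g, and 0 of 7 members were called in each. It was 0.0879% for the mean of the 4 terpenoid diets and 0.0719% for the F test of any difference among the 5 diets, again with 0 of 7 members. The members' adjusted p in the F test ran from 0.606 for the 20-monooxygenase to 0.916 for ecdysoneless. All of these comparisons with untreated larvae share the same 3 untreated libraries. At an unadjusted p under 0.05, 1 of 7 members passed on EO at 10 mg/g, the 20-monooxygenase, against 6.31% of all unigenes. On the other 3 diets 0 of 7 did, against 8.8% of all unigenes for the higher EO dose and 6.24% for each D-camphor dose. The count was also 0 of 7 for the mean of the 4 diets and for the F test, against 6.15% and 8.83%. With so few calls in the whole table, a member that misses the threshold is not shown to be the same on all diets, and the intervals below give the sizes that these libraries allow.

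The 20-monooxygenase (TRINITY_DN22851_c0_g1) stood at 36.0, 28.83 and 37.96 TPM in the untreated libraries and at 16.44, 26.31 and 27.29 TPM on EO at 10 mg/g. It was at 21.46, 37.41 and 36.27 TPM on EO at 30 mg/g. On D-camphor it was at 34.45, 38.03 and 37.38 TPM at 17 mg/g and at 31.73, 22.78 and 27.3 TPM at 41 mg/g. All 3 libraries on EO at 10 mg/g were below all 3 untreated ones, which 8.51% of all unigenes also were, and every other diet overlapped with untreated larvae. The means were 23.4 ± 6.0 TPM on EO at 10 mg/g and 34.3 ± 4.81 TPM in untreated larvae (SD, n = 3).

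On the log2(TPM + 1) scale the difference of the 20-monooxygenase on EO at 10 mg/g was -0.56 (SE 0.232, 95% interval -1.06 to -0.05). The adjusted p by limma was 0.713. The median of all unigenes in this comparison was itself -0.12, and median-of-ratios scaling moved that median to 0.02 and the difference of the 20-monooxygenase to -0.38. Without replicate 1 of this diet, 1 of the 3 libraries apart, the difference was -0.33. With all 3 left out it was also -0.33, with an adjusted p of 0.865 by limma.

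Between doses of the same additive, the 20-monooxygenase differed by 0.42 from EO at 10 to 30 mg/g and by -0.42 from D-camphor at 17 to 41 mg/g. Neither step passed, with adjusted p of 0.999 and 0.611 by limma. The difference between the 2 steps was 0.84 (95% interval 0.13 to 1.55), with an adjusted p of 0.345 by limma. Its unadjusted p by limma was 0.0245, and 11.6% of all unigenes were under 0.05 here, with a median difference of 0.12. Without the 3 libraries it was 0.75, with an adjusted p of 0.508. The doses of the additives differ, so the 2 steps are not equal steps. Levels on EO were not tested against levels on D-camphor.

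FTZ-F1 (TRINITY_DN1032_c0_g1) was low in most libraries and high in a few. It stood at 1.11, 0.66 and 0.68 TPM in untreated larvae, at 12.13, 0.6 and 0.96 TPM on EO at 10 mg/g and at 3.71, 1.5 and 0.73 TPM on EO at 30 mg/g. On D-camphor it was at 1.19, 1.32 and 1.39 TPM at 17 mg/g and at 1.06, 8.22 and 3.08 TPM at 41 mg/g. The 4 libraries above 3 TPM were the 3 that stood apart and replicate 3 of D-camphor at 41 mg/g. Within EO at 10 mg/g alone, the highest library was 20.2-fold the lowest, the same ratio as over all 15 libraries.

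The diet means of FTZ-F1 carried this spread. They were 0.817 ± 0.254 TPM in untreated larvae, 4.56 ± 6.56 and 1.98 ± 1.55 TPM on EO (10 and 30 mg/g), and 1.30 ± 0.102 and 4.12 ± 3.69 TPM on D-camphor at 17 and 41 mg/g (SD, n = 3). The comparison with the smallest p was D-camphor at 41 mg/g against untreated larvae, at 1.24 on the log2(TPM + 1) scale (SE 0.713, 95% interval -0.31 to 2.79, adjusted p = 0.938 by limma). This scale understates changes of low unigenes, and with a pseudocount of 0.1 the estimate was 1.81. Without replicate 2 of that diet it was 0.68. With all 3 libraries apart left out it was again 0.68 (adjusted p = 0.83 by limma), while on EO at 10 mg/g it went from 0.94 to -0.03. On D-camphor at 17 mg/g all 3 values lay just above the highest untreated one, as 8.35% of all unigenes did.

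74EF, a transcription factor of the ETS family (TRINITY_DN6767_c0_g1), was at 0.75, 1.51 and 1.21 TPM in untreated larvae. It was at 6.05, 0.84 and 0.87 TPM on EO at 10 mg/g and at 2.68, 1.19 and 1.01 TPM on EO at 30 mg/g. On D-camphor it was at 1.03, 1.09 and 1.54 TPM at 17 mg/g and at 1.62, 4.0 and 2.2 TPM at 41 mg/g. Its 4 highest libraries were those of FTZ-F1, in the same order. Only D-camphor at 41 mg/g did not overlap with untreated larvae, where 3.41% of all unigenes were higher without overlap. The estimate there was 0.70 on the log2(TPM + 1) scale (SE 0.453, 95% interval -0.28 to 1.69, adjusted p = 0.963 by limma), and 1.06 with a pseudocount of 0.1. Without replicate 2 of that diet, and likewise without all 3 libraries apart, it was 0.44 (adjusted p = 1.0 and 0.893).

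**Figure D2:**
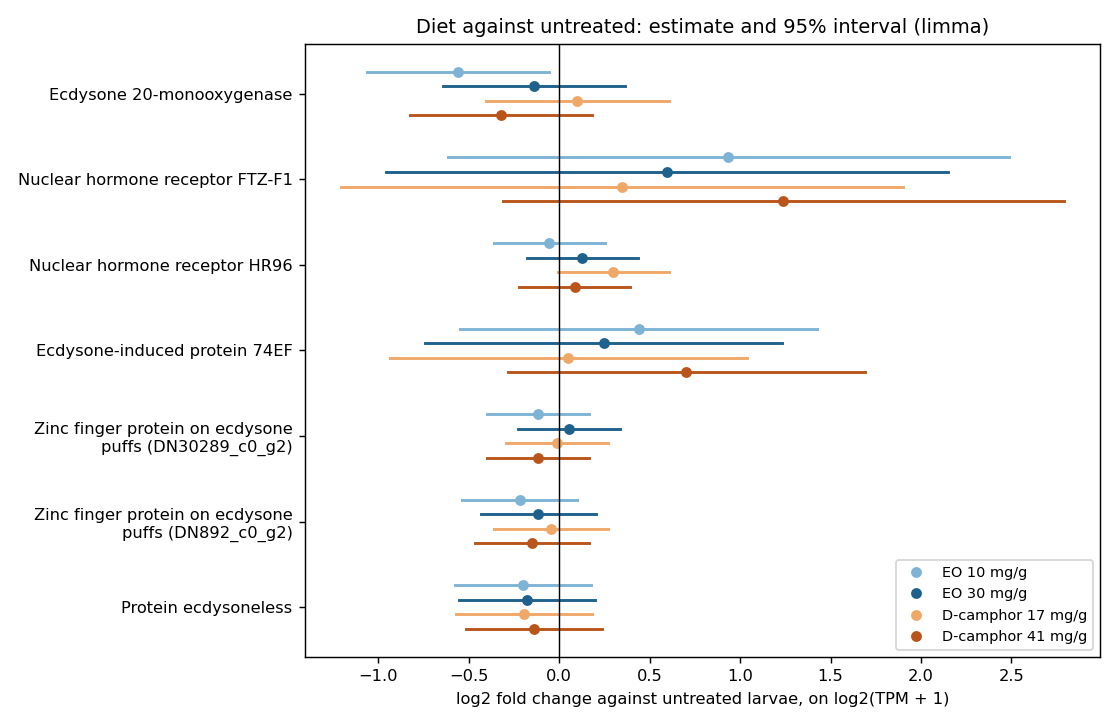
Difference of each diet from untreated larvae for the 7 ecdysone-related unigenes, on the log2(TPM + 1) scale (x axis), as limma's estimate (point) with its 95% interval (line). Every interval includes 0 except that of the 20-monooxygenase on EO at 10 mg/g, which runs from -1.06 to -0.05 and has an adjusted p of 0.713; the intervals of FTZ-F1 and 74EF are the widest.

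HR96 (TRINITY_DN7146_c0_g1) varied little. It was at 5.35, 5.25 and 6.63 TPM in untreated larvae, at 6.54, 4.48 and 5.53 TPM on EO at 10 mg/g and at 7.29, 6.41 and 5.42 TPM on EO at 30 mg/g. On D-camphor it was at 6.73, 7.62 and 7.48 TPM at 17 mg/g and at 6.32, 6.68 and 5.45 TPM at 41 mg/g. All 3 libraries on D-camphor at 17 mg/g were above all untreated ones, as 8.35% of all unigenes were, and above all 3 on D-camphor at 41 mg/g. Against untreated larvae the estimate was 0.30 on the log2(TPM + 1) scale (SE 0.141, 95% interval -0.01 to 0.61, adjusted p = 0.797 by limma). None of the 3 libraries apart is in that comparison, and without them the estimate stayed at 0.30 with an adjusted p of 0.627.

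Between the doses of D-camphor, 3 of 7 members did not overlap, with 74EF higher and the 20-monooxygenase and HR96 lower at 41 mg/g, beside 21.4% of all unigenes. Between the doses of EO, 0 of 7 did, beside 8.55% of all unigenes. In both dose steps limma called 0 of 7 members, with 0.00799% of all unigenes called for EO and 0.0% for D-camphor. At an unadjusted p under 0.05 the count was also 0 of 7 in each step, beside 4.97% and 9.51% of all unigenes.

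Protein ecdysoneless (TRINITY_DN10724_c0_g1) was at 2.82, 4.24 and 5.16 TPM in untreated larvae, which held both its lowest and its highest library. The 12 libraries on terpenoid diets lay between 2.85 and 4.14 TPM. Among single diets its smallest p was on EO at 10 mg/g, with an estimate of -0.20 on the log2(TPM + 1) scale (95% interval -0.57 to 0.18, adjusted p = 0.743 by limma). Untreated replicates 1 and 3 decided its size, since it was -0.39 without replicate 1 and -0.04 without replicate 3, and median-of-ratios scaling moved it to -0.05. For the mean of the 4 terpenoid diets, where its p was smaller, the estimate was -0.18 (95% interval -0.47 to 0.12, adjusted p = 0.872 by limma). The same 2 untreated libraries moved it, to -0.37 with replicate 1 left out and -0.02 with replicate 3 left out, and median-of-ratios scaling gave -0.11.

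The 2 unigenes described as zinc finger protein on ecdysone puffs had the smallest ratios of highest to lowest library of the 7, at 1.37 and 1.49. TRINITY_DN30289_c0_g2 ranged from 113.44 to 155.28 TPM and TRINITY_DN892_c0_g2 from 47.84 to 71.49 TPM. Diet means ran from 122.8 ± 8.29 TPM on D-camphor at 41 mg/g to 139.0 ± 14.2 TPM on EO at 30 mg/g for the former. For the latter they ran from 56.2 ± 8.18 TPM on EO at 10 mg/g to 65.2 ± 4.76 TPM in untreated larvae (SD, n = 3). Their estimates with the smallest p were -0.12 on D-camphor at 41 mg/g (95% interval -0.40 to 0.16, adjusted p = 0.998 by limma) and -0.22 on EO at 10 mg/g (95% interval -0.53 to 0.10, adjusted p = 0.714). Median-of-ratios scaling moved these to -0.07 and -0.04. Within each library the first was 1.89 to 2.67 times the other. Their 4 highest libraries were the same, in the same order. The table gives both the same description, so reads of near-identical stretches could have been divided between them, which makes the split between the 2 uncertain.

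Set against all 12510 unigenes tested, the members lay at both ends of the spread between replicates. The residual SD around the diet means on the log2(TPM + 1) scale was 0.954 for FTZ-F1, and 94.7% of unigenes had a smaller one. It was 0.598 for 74EF, above 83.5% of unigenes, and 0.297 for the 20-monooxygenase, above 55.8%. The remaining 4 members lay below the median of 0.264, down to 0.140 for TRINITY_DN30289_c0_g2, above only 12.4% of unigenes. FTZ-F1 and 74EF are also the 2 members with the lowest means, and the part of sampling in their spread was not tested, since TPM keeps no read counts.

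FTZ-F1 and 74EF were highest, and the 20-monooxygenase lowest, in the 3 libraries that stood apart. FTZ-F1 was at 12.13, 3.71 and 8.22 TPM in them and at most 3.08 TPM in the other 12, and 74EF was at 6.05, 2.68 and 4.0 TPM against at most 2.2 TPM. The 20-monooxygenase was at 16.44, 21.46 and 22.78 TPM in them and at least 26.31 TPM in the others, and the puff protein TRINITY_DN892_c0_g2 at 47.84, 49.12 and 55.22 TPM against at least 56.6 TPM. So 2 of 7 members were above all other libraries in all 3, and 2 of 7 were below. Of all unigenes tested, 1.95% were above and 1.79% below in this way. The same table set these libraries apart, so no test belongs to these counts. HR96, ecdysoneless and TRINITY_DN30289_c0_g2 lay within the range of the others in these 3 libraries.

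The members' levels were set beside cuticle genes, since insects lay down new cuticle at each moult. The list, named cuticle deposition here, held 65 unigenes described as cuticle or cuticular proteins or as chitinases. The words chitin synthase and chitin deacetylase matched no row. Chitinases break down chitin, so the list is not of deposition alone. Their mean in the 3 libraries apart was 0.416 (TRINITY_DN5524_c0_g1) to 3.245 (TRINITY_DN6513_c0_g1) times that in the other 12. Summed over all 65, the level was 33626 TPM in replicate 1 of EO at 10 mg/g and 22013 TPM in replicate 2 of D-camphor at 41 mg/g. It was 17775 TPM in replicate 1 of EO at 30 mg/g and 8390 TPM in replicate 3 of D-camphor at 41 mg/g. The remaining 11 libraries held 543.8 to 5133 TPM, with 543.8, 1234 and 1096 TPM in untreated larvae. These 4 highest libraries were the 4 highest of FTZ-F1 and of 74EF, in the same order. The row with the highest mean, flexible cuticle protein 12-like TRINITY_DN32673_c0_g1, reached 13656 TPM in replicate 1 of EO at 10 mg/g.

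**Figure D3:**
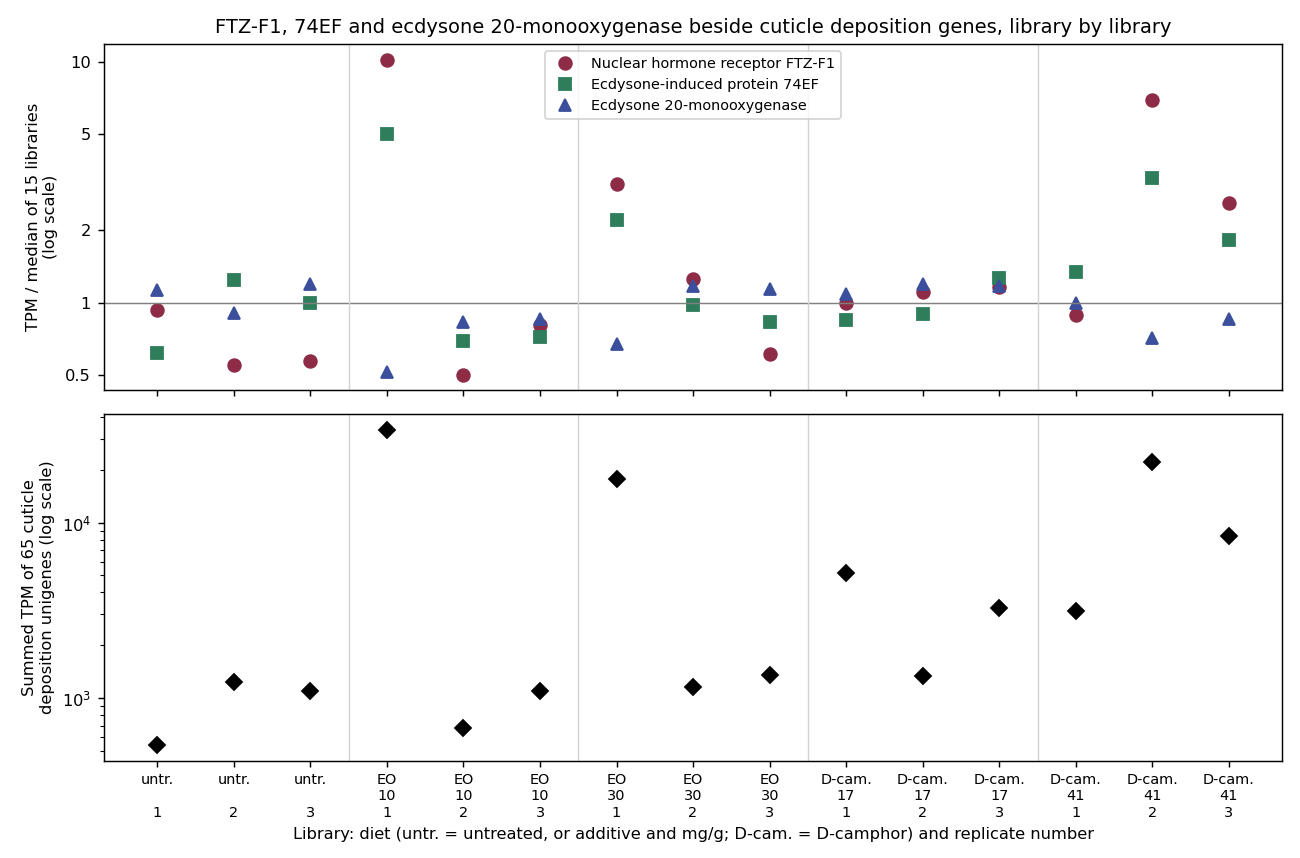
Upper panel: FTZ-F1, 74EF and the 20-monooxygenase in each of 15 libraries (x axis), as TPM divided by the unigene's median over the libraries (log scale). Lower panel: summed TPM of 65 cuticle deposition unigenes in the same libraries (log scale). FTZ-F1, 74EF and the cuticle sum peak in the same 4 libraries, from 33626 TPM down to 8390 TPM for the sum, and the 20-monooxygenase is lowest in 3 of them.

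Of the 53 cuticle deposition unigenes tested, 18 were above all other 12 libraries in the 3 that stood apart, and 0 were below. Of all unigenes tested, 1.95% were above and 1.79% below. The same table set these libraries apart, so no test belongs to this count either. The mean of at least 1 TPM also includes these 3 libraries, so a row high in them could enter the 53 through them. TRINITY_DN7580_c0_g1, among the 18, was at 5.58, 23.01 and 10.34 TPM in them, with a median of 0.0 TPM in the other 12. Limma called 0 of 53 in any comparison with untreated larvae. At an unadjusted p under 0.05 there were 1, 6, 7 and 18 of 53 on EO (10 and 30 mg/g) and D-camphor (17 and 41 mg/g), against 6.31%, 8.8%, 6.24% and 6.24% of all unigenes. The median estimates of the list were 1.32, 0.94, 0.28 and 2.81 on the log2(TPM + 1) scale, beside -0.12, -0.06, 0.03 and -0.04 for all unigenes tested. The part of cuticle deposition, or of any moulting state behind it, in the levels of the members was not tested, since no label gives the moulting state.

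Relations were measured as correlations of log2(TPM + 1) over all 15 libraries and within the 12 that did not stand apart. Over all 15, the cuticle sum had r = 0.891 with FTZ-F1, 0.909 with 74EF and -0.726 with the 20-monooxygenase (adjusted permutation p = 7e-05, 7e-05 and 0.00376 over 7 relations). The rho was 0.771, 0.829 and -0.479 (adjusted permutation p = 0.00479, 0.00161 and 0.105). Without the 2 libraries farthest from the median of the sum, r was 0.817, 0.856 and -0.471. FTZ-F1 had r = 0.943 with 74EF and -0.779 with the 20-monooxygenase (adjusted permutation p = 0.000315 and 0.00591 over 21 pairs), and rho was 0.689 and -0.314 (adjusted permutation p = 0.0295 and 0.381). With 74EF, r was 0.777 without replicate 1 of EO at 10 mg/g and replicate 2 of D-camphor at 41 mg/g, the 2 farthest for FTZ-F1. With the 20-monooxygenase, r was -0.52 without replicate 1 of EO at 10 mg/g and replicate 1 of EO at 30 mg/g. Those are the 2 farthest for the 20-monooxygenase, so the 2 values leave out different libraries. The puff protein TRINITY_DN892_c0_g2 had r = -0.784 with the sum (adjusted permutation p = 0.00131). All of these values include 1 or more of the 3 libraries apart, which the same data had already shown to be highest or lowest in these members. The permutations over all 15 libraries also shuffled them without regard to diet. The p-values above thus describe a pattern already seen and give it no separate support. Values without the 3 libraries follow.

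Within the other 12 libraries, FTZ-F1 had, with the cuticle sum, r = 0.681 (permutation p = 0.0124, adjusted p = 0.0434 over 7 relations, n = 12) and a Spearman rho of 0.552 (adjusted permutation p = 0.235). Without the 2 libraries farthest from the median of the sum, r was 0.359, so this relation rests on them. For 74EF, r was 0.755 (permutation p = 0.00459, adjusted p = 0.0321) and rho 0.664 (adjusted permutation p = 0.153), and r was 0.842 without the 2 farthest. The 20-monooxygenase showed r = -0.0987 and rho = 0.014 with the sum (adjusted permutation p = 0.76 and 0.974), and the other 4 members lay between -0.379 and 0.359, with adjusted permutation p of 0.406 or more. The permutations among the 12, here and for the pairs below, also took no account of diet. The highest cuticle sums among the 12 were on D-camphor, at 8390, 5133, 3266 and 3156 TPM, while replicate 2 at 17 mg/g held 1333 TPM. The part of diet in these relations was not tested.

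Among the 21 pairs of members in these 12 libraries, the 2 puff proteins had r = 0.92 (permutation p = 6e-05, adjusted p = 0.00126) and rho = 0.818 (adjusted permutation p = 0.0378), and r was 0.806 without the 2 farthest libraries. Ecdysoneless had r = 0.769 and 0.75 with them (adjusted permutation p = 0.0304 for both), but rho was 0.629 for each with an adjusted permutation p of 0.17. Like all correlations here, these used TPM without median-of-ratios scaling, and the part of library-wide shifts in them was not tested. The factor of that scaling was largest, at 1.208, in untreated replicate 3, where ecdysoneless was highest, at 5.16 TPM. FTZ-F1 and 74EF had r = 0.606 and rho = 0.392 (adjusted permutation p = 0.131 and 0.44), and r was -0.0176 without the 2 farthest libraries. FTZ-F1 and the 20-monooxygenase had r = -0.0335 and rho = 0.336 (adjusted permutation p = 0.96 and 0.481). Outside the 3 libraries apart, these data thus gave no relation of FTZ-F1 with 74EF or with the 20-monooxygenase past the threshold.

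**Figure D4:**
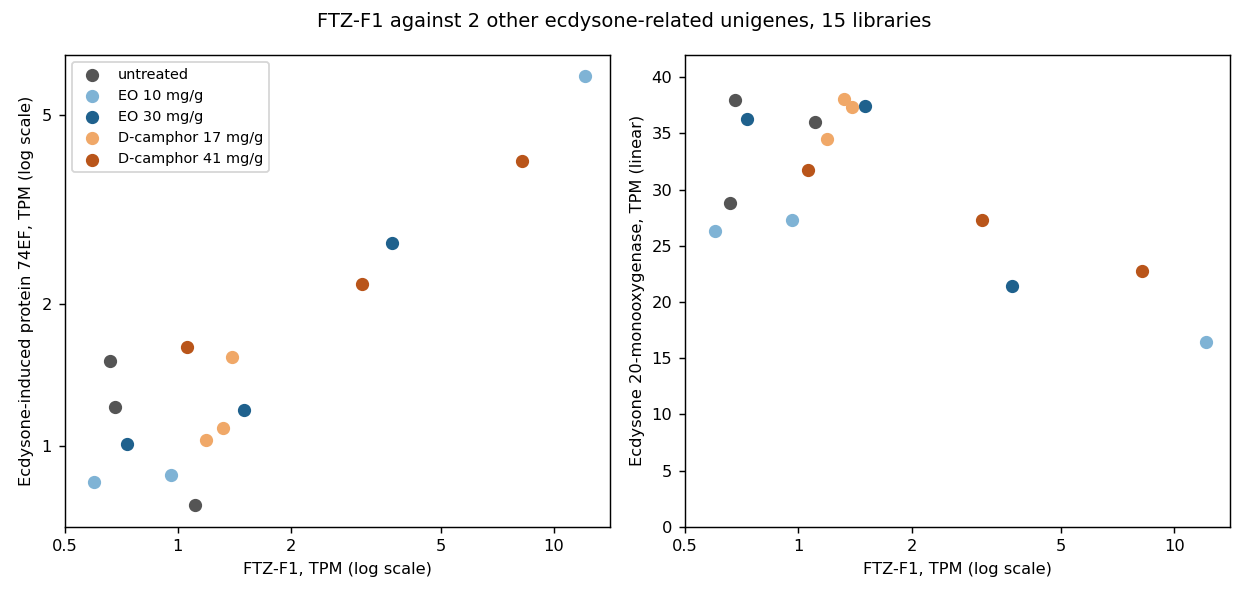
Level of FTZ-F1 in TPM (x axis, log scale) against 74EF (left, log scale) and the 20-monooxygenase (right, linear scale) in TPM, 1 point per library, coloured by diet. The 4 libraries with FTZ-F1 above 3 TPM lie at the upper right on the left and low on the right; among the other libraries neither panel shows a line of points.

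For each member, the described unigenes with the most similar pattern over all 15 libraries were found among 9118 searched, as a description by Pearson r, which the 3 libraries apart can raise. FTZ-F1 and 74EF shared their nearest, TRINITY_DN3150_c0_g1, at r = 0.962 and 0.948. It is an uncharacterized protein that ranged from 0.03 to 29.56 TPM. Their next were TRINITY_DN1006_c1_g1, a hypothetical protein, at 0.96 for FTZ-F1, and TRINITY_DN5407_c0_g1, an uncharacterized protein listed at 0 to 356.31 TPM, at 0.941 for 74EF. Nearest to the 20-monooxygenase were the E3 ubiquitin-protein ligase Nedd-4 (TRINITY_DN175_c0_g1, 0.952) and a solute carrier described as family 41 member 1-like (TRINITY_DN41053_c0_g1, 0.946).

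Ecdysoneless lay nearest to eukaryotic initiation factor 4A-III, an RNA helicase of the exon junction complex (TRINITY_DN38281_c0_g1, 0.973), and to the uncharacterized protein TRINITY_DN4451_c0_g2 (0.947). TRINITY_DN30289_c0_g2 lay nearest to the probable RNA polymerase II nuclear localization protein SLC7A6OS (TRINITY_DN3217_c0_g1, 0.929) and the RNA helicase Ddx1 (TRINITY_DN10620_c0_g1, 0.908). TRINITY_DN892_c0_g2 lay nearest to the chromatin protein DEK (TRINITY_DN1172_c0_g1, 0.952) and a sodium and potassium ATPase alpha subunit (TRINITY_DN1337_c0_g1, 0.947). HR96 lay nearest to a dentin sialophosphoprotein-like protein (TRINITY_DN15165_c0_g2, 0.899) and the tyrosine kinase Src42A (TRINITY_DN2699_c0_g1, 0.891).

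Matching rows under the limit were low in all libraries. The ecdysone receptor (TRINITY_DN1415_c0_g2) was at 0.44, 0.36 and 0.46 TPM in untreated larvae, at 0.37, 0.25 and 0.36 TPM and at 0.1, 0.32 and 0.26 TPM on EO at 10 and 30 mg/g. On D-camphor it was at 0.36, 0.69 and 0.53 TPM at 17 mg/g and at 0.57, 1.38 and 0.48 TPM at 41 mg/g. It was highest in 1 of the 3 libraries apart, replicate 2 of D-camphor at 41 mg/g, and lowest in another, replicate 1 of EO at 30 mg/g. The FTZ-F1 beta-like receptor, ecdysone-induced protein 78C and the probable receptor HR3 had means of 0.223, 0.204 and 0.111 TPM, and HR3 was listed at 0 in 4 libraries.

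Other genes of hormone synthesis were found by words in the descriptions, with 6 rows, of which 2 reached the mean of 1 TPM needed for the test. Limma called 0 of 2 in each comparison with untreated larvae. At an unadjusted p under 0.05, 1 of 2 passed on EO at 30 mg/g and 1 of 2 on D-camphor at 17 mg/g. The shares of all unigenes were 8.8% and 6.24%. On both diets it was the row with the highest mean, the Rieske subunit of the cytochrome b-c1 complex (TRINITY_DN4675_c0_g1, 87.7 TPM). That row belongs to the respiratory chain and matched only through the word Rieske, so no P450 of hormone synthesis passed. CYP315A1, Shadow in Drosophila (TRINITY_DN37750_c0_g1), had a mean of 3.33 TPM and ranged from 2.4 to 4.85 TPM. It was at 4.85, 4.42 and 3.12 TPM in the 3 libraries apart and between 2.4 and 4.16 TPM in the other 12. The receptor torso, which in Drosophila receives the brain signal for hormone release (TRINITY_DN8617_c0_g1), had a mean of 0.886 TPM.

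The other Halloween P450 rows, chosen for naming after their values were seen, were lower still. CYP306A1, Phantom in Drosophila, had a mean of 0.795 TPM and the CYP302A1-like row, Disembodied in Drosophila, 0.417 TPM. In the 3 libraries apart, CYP306A1 was at 0.37, 0.6 and 0.51 TPM, against 0.58 to 1.23 TPM in the other 12. The CYP302A1-like row was at 0.44, 0.28 and 0.38 TPM there, against 0.27 to 0.65 TPM. The CYP307A1-like row, of the Spook group in Drosophila (TRINITY_DN41014_c0_g1), was at 0.79, 0.47 and 0.86 TPM in the 3 libraries apart and between 0.04 and 0.45 TPM in the other 12, as small steps above 0 without a test. CYP18A1 (TRINITY_DN10925_c0_g1), which in Drosophila inactivates the hormone, was the single row of removal and was called in 0 of these comparisons, also at an unadjusted p under 0.05. It was at 1.89, 2.35 and 4.69 TPM in the untreated libraries and highest, at 7.39 and 5.11 TPM, in replicate 2 of D-camphor at 41 mg/g and replicate 1 of EO at 10 mg/g. In replicate 1 of EO at 30 mg/g, also apart, CYP18A1 was at 3.87 TPM, within the 1.2 to 4.77 TPM of the other 12.

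The list of response factors held 19 rows, 7 of them tested, with 0 of 7 called in each comparison with untreated larvae, also at an unadjusted p under 0.05. Of all unigenes, 0.016% to 0.184% were called in these comparisons, and 6.15% to 8.8% had an unadjusted p under 0.05. The median estimates were -0.06, 0.01, 0.11 and -0.02 on EO (10 and 30 mg/g) and D-camphor (17 and 41 mg/g), beside -0.12, -0.06, 0.03 and -0.04 for all unigenes tested. The 3 rows with the highest means were a nuclear receptor-binding protein homolog at 13.3 TPM, nuclear receptor coactivator 7 at 13.0 TPM and hepatocyte nuclear factor 4-gamma at 5.97 TPM. The words also caught receptors of peptide hormones, such as an adipokinetic hormone receptor at 0.508 TPM, which bind no steroid. The 2 moulting peptide rows, bursicon at 0.678 TPM and an eclosion hormone-like row at 0.204 TPM, were too low to test.

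**Figure D5:**
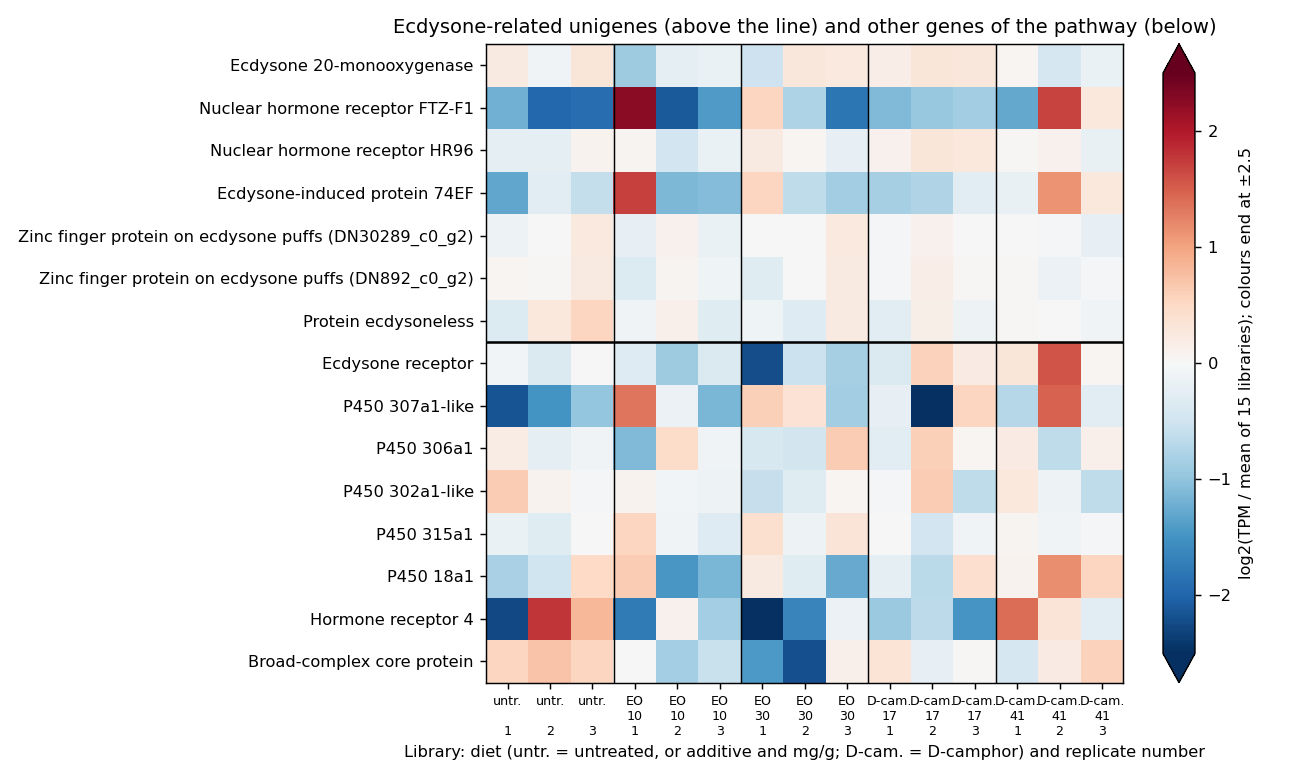
Level of the 7 ecdysone-related unigenes (above the line) and 8 other genes of the pathway (below) in each of 15 libraries (columns, by diet), coloured by log2 of TPM over the unigene's mean; P450 rows are those named by CYP in the text. FTZ-F1 and 74EF are red in replicate 1 of EO at 10 mg/g and replicate 2 of D-camphor at 41 mg/g, paler red in replicate 1 of EO at 30 mg/g and near white in replicate 3 of D-camphor at 41 mg/g, the 20-monooxygenase is blue in the 3 apart, and the puff proteins stay pale; rows with means under 0.5 TPM, such as the ecdysone receptor, vary by steps near 0.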

How the data were processed

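RNA of whole larvae was isolated with TRIzol and sequenced from NEBNext Ultra libraries, per the labels' protocols. The authors deposited TPM values with 2 decimals, and each column was checked to sum to between 999999.16 and 1000001.21. The assembler, aligner and counting tool were not given in the sources used here. Each column's letter and number match 1 library title, and groups come from the treatment labels. TPM holds no read counts, so the precision that depth gives is unknown.

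The members and gene lists were chosen with earlier results of these data known. The 12510 unigenes whose mean reached 1 TPM were tested as log2(TPM + 1), with 1 mean per diet over the 15 libraries, by limma (3.58.1, R 4.3.3) with a variance trend (10 residual and 2.12 prior degrees of freedom). P-values are two-sided and Benjamini-Hochberg adjusted over all unigenes tested. A call is an adjusted p under 0.05. The program was tested on simulated data before use. Correlations used 100000 permutations, two-sided, with p-values adjusted within each family of relations. Alternatives were a pseudocount of 0.1, other filters on the mean, median-of-ratios scaling, a replicate block, each library left out in turn, and 3 libraries left out together.

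By the naming rule, all members are named, each with the single diet of smallest p against untreated larvae and, where its p was smaller still, the mean of the 4 diets, its 2 most similar described unigenes, and the 3 highest rows of each pathway list. Lists were found by words in the descriptions: hormone synthesis, hormone removal, response factors, moulting peptides, cuticle deposition, muscle, gut, fat body, nervous system and haemocytes. No sequence is shown, because no genome or sequence table of this species was used here.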

Additional observations from a re-analysis of the deposited data

How the results depend on the processing

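In each of the 8 comparisons, limma called 0 of 7 members under all 22 other settings, and the smallest adjusted p of any member in any of them was 0.292, for ecdysoneless in the mean of the 4 terpenoid diets without untreated replicate 1. The filter at 5 TPM leaves FTZ-F1, 74EF and ecdysoneless untested, since their means are lower. With each library left out in turn, 0 of 7 members were called throughout. The estimates with the smallest p kept their sign, from 0.68 to 1.76 for FTZ-F1, 0.44 to 0.91 for 74EF, -0.68 to -0.33 for the 20-monooxygenase, 0.25 to 0.39 for HR96 and -0.39 to -0.04 for ecdysoneless (-0.37 to -0.02 for the mean of the 4 diets). For the puff proteins they ran from -0.20 to -0.01 (TRINITY_DN30289_c0_g2) and -0.32 to -0.11 (TRINITY_DN892_c0_g2). Median-of-ratios scaling kept every sign but moved TRINITY_DN892_c0_g2 and ecdysoneless on EO at 10 mg/g from -0.22 to -0.04 and from -0.20 to -0.05, and TRINITY_DN30289_c0_g2 on D-camphor at 41 mg/g from -0.12 to -0.07. Replicate numbers showed no clear pairing of the libraries. Deviations of same-numbered libraries had correlations from -0.344 to 0.559, with a median of 0.0242, against a median of 0.0198 for different numbers. Of the same-numbered pairs, 10 of 30 were over 0.1, and 6 of 15 libraries were closest to their own number. The replicate block left the members at 0 of 7 calls, and moved the calls among all unigenes from 23 to 12 on EO at 30 mg/g and from 5 to 1 on D-camphor at 17 mg/g. Calls among all unigenes were few and moved with the settings: without a filter they were 42, 55, 48 and 50 on EO (10 and 30 mg/g) and D-camphor (17 and 41 mg/g), against 9, 23, 5 and 2 with it. The cause was not tested. TPM keeps no depth, so how far sampling sets the spread of FTZ-F1 and 74EF, both at a few TPM, is not known.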

Other observations

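Among the low response factors, hormone receptor 4 (TRINITY_DN5257_c0_g1), an ecdysone-responsive nuclear receptor in Drosophila, was singled out after its values were seen, because its high libraries are not those of FTZ-F1. It was at 0.29, 4.8 and 2.48 TPM in untreated larvae, at 0.41, 1.49 and 0.77 TPM on EO at 10 mg/g and at 0.23, 0.44 and 1.25 TPM on EO at 30 mg/g. On D-camphor it was at 0.73, 0.88 and 0.5 TPM at 17 mg/g and at 3.67, 1.74 and 1.15 TPM at 41 mg/g. Its 3 highest libraries were untreated replicate 2, replicate 1 of D-camphor at 41 mg/g and untreated replicate 3, and it was low in 2 of the 3 libraries in which FTZ-F1 was highest. Of the broad-complex rows, the highest (TRINITY_DN15530_c1_g1), a transcription factor of the early ecdysone response in Drosophila, was at 0.47, 0.53 and 0.47 TPM in the untreated libraries and at 0.07 to 0.48 TPM in the other libraries. Bursicon (TRINITY_DN3654_c0_g1), a hormone of cuticle hardening, was between 0.19 and 1.42 TPM, with the highest value in replicate 1 of D-camphor at 17 mg/g. In the 3 libraries apart, in which FTZ-F1 was highest, bursicon was at 0.19, 0.97 and 0.33 TPM, against 0.39 to 1.42 TPM in the other 12, without a test.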
